A study of Mus musculus with 6 samples.

Results

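Genes of MHC class I antigen processing and of the immunoproteasome were examined in Raw 264.7 cells, a mouse line of monocyte and macrophage type derived from a virus-induced tumour. The 10 genes were chosen by name: the proteasome subunits Psmb8, Psmb9 and Psmb10, the proteasome activator subunits Psme1 and Psme2, the peptide transporter subunits Tap1 and Tap2, the loading factor Tapbp, the light chain B2m and the regulator Nlrc5. Each was read through a probe set annotated to that symbol alone, and where a gene had several, the one with the highest mean over the 6 arrays was used. The choice was made with earlier results of these data known. All 10 were measured, among 22180 genes in all, and no filter on low values was applied. The IL-33 arrays came from cells that were starved and then kept in medium with 2% serum and IL-33 at 50 ng/ml, and IL-33 is a cytokine of the IL-1 family. The PBS arrays came from cells of the same line, starved and kept in the same medium without IL-33. Each group held 3 arrays of labelled cDNA made from total RNA, at a single dose, with no duration of treatment in the sources used here. Both groups grew beforehand in medium with 10% serum, and both are a tumour line, not primary macrophages. The labels do not state whether replicates were grown as separate cultures, and the p-values therefore cover only the spread among these 6 samples, which may be technical.

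MHC class I molecules show peptides from inside the cell to CD8 T cells. Proteins are cut by the proteasome, the peptides are carried into the endoplasmic reticulum by the TAP transporter, and there they are loaded onto a class I heavy chain paired with beta-2-microglobulin. In cells exposed to interferons, the standard catalytic subunits of newly made proteasomes are replaced by the inducible subunits encoded by Psmb8, Psmb9 and Psmb10, and this form is called the immunoproteasome. Cells of the macrophage lineage hold it to some degree without added interferon.

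All directions follow the sample titles. The hybridisation names given with the samples point the opposite way, since those of the PBS arrays hold the letters IL and those of the IL-33 arrays the letter P. Had the titles been exchanged, each direction below would be reversed. "Rose" means higher in the arrays titled IL-33 with a limma p under 0.05 after Benjamini-Hochberg adjustment across the 22180 genes. Values are log2 expression values, so a difference of 1 is a doubling, and levels of different genes were not tested against each other. As a description, levels were set beside the medians and highest values of the arrays, and summed over marker lists. Array medians lay between 5.31 and 5.36 and the highest value of an array between 13.62 and 13.66.

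Markers of the labelled cell type and of 5 other kinds of cell were read first. All but Mertk of 10 monocyte and macrophage markers lay above the array medians, and none passed (limma). Adgre1, which encodes a macrophage surface receptor, had the smallest p, with 10.73, 10.80 and 10.73 in IL-33 arrays, against 10.98, 11.14 and 11.01 in PBS arrays. Its log2 difference was -0.29 (adjusted p = 0.114, limma), with every IL-33 array below every PBS array. Itgam, an integrin chain of myeloid cells, separated the other way, with a difference of 0.09. Over the 10 markers 2 separated upward and 3 downward, where 10.3% and 10.1% of all genes did so. The summed log2 level of these markers was 103.8 to 104.6 in IL-33 arrays and 104.4 to 104.5 in PBS arrays. Above the array medians lay 0 of 8 lymphocyte markers, 3 of 9 dendritic cell, 6 of 10 fibroblast, 5 of 10 endothelial and epithelial and 2 of 10 mast cell and basophil markers. The highest mean of a marker over the arrays was 5.08, 10.45, 6.31, 6.17 and 6.71 in that order of lists. The 10.45 belonged to Cd209a, named for its level. Array medians reached 5.36, so most of the fibroblast, endothelial and epithelial markers counted lay little above them. The first 4 of these 5 lists held no gene that passed (limma). Their smallest p belonged to Cd8a and Cd2, to Klrd1 and Ccr7, to Col6a1 and Thy1, and to Vwf and Epcam in that order of lists, and Klrd1 differed by 0.29 and Vwf by -0.27 on the log2 scale. An unadjusted p under 0.05 was found for 0, 1, 1 and 1 of their genes in the same order, and for 1 macrophage marker, where 13.2% of all genes had one. Summed log2 levels were 34.1 to 34.9 in IL-33 arrays and 34.4 to 35.5 in PBS arrays for lymphocyte markers. They were 48.1 to 49.2 in IL-33 arrays and 48.3 to 48.8 in PBS arrays for dendritic cell markers. Fibroblast markers summed to 50.1 to 50.4 in IL-33 arrays and 50.5 to 51.1 in PBS arrays, without overlap, and endothelial and epithelial markers to 51.2 to 52.8 in IL-33 arrays and 52.5 to 53.3 in PBS arrays. Of the mast cell and basophil markers 1 passed, Hdc, which makes histamine, with a log2 difference of 0.77 (adjusted p = 0.0183, limma). It passed in 1 of the 6 fits that leave an array out, without PBS replicate 2, and adjusted p over the 6 lay between 0.0305 and 0.0982. The sum over that list was 42.5 to 43.1 in IL-33 arrays and 41.5 to 42.8 in PBS arrays. Their part in the results was not tested.

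Expression of class I processing genes was higher in the IL-33 arrays for some members and within the spread for others. Psmb9, a catalytic subunit of the immunoproteasome, rose 1.46-fold, and Tap1, a subunit of the peptide transporter, rose 1.26-fold. No member fell and 8 did not pass. Over all genes, 0.275% passed as higher and 0.316% as lower, against 2 and 0 of the 10 members. All 10 members had a difference above 0, where 47.9% of all genes did. Their median log2 difference was 0.178, against -0.0051 over all genes, with a range of 0.021 to 0.544. In 6 members every IL-33 array lay above every PBS array, and in none did the reverse hold, where 10.3% and 10.1% of all genes showed such a separation upward and downward. Because the members were chosen with earlier results of these data known, these shares are a description and not a test. RNA was measured in bulk, so more cells with a transcript and more of it per cell cannot be told apart.

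**Figure D1:**
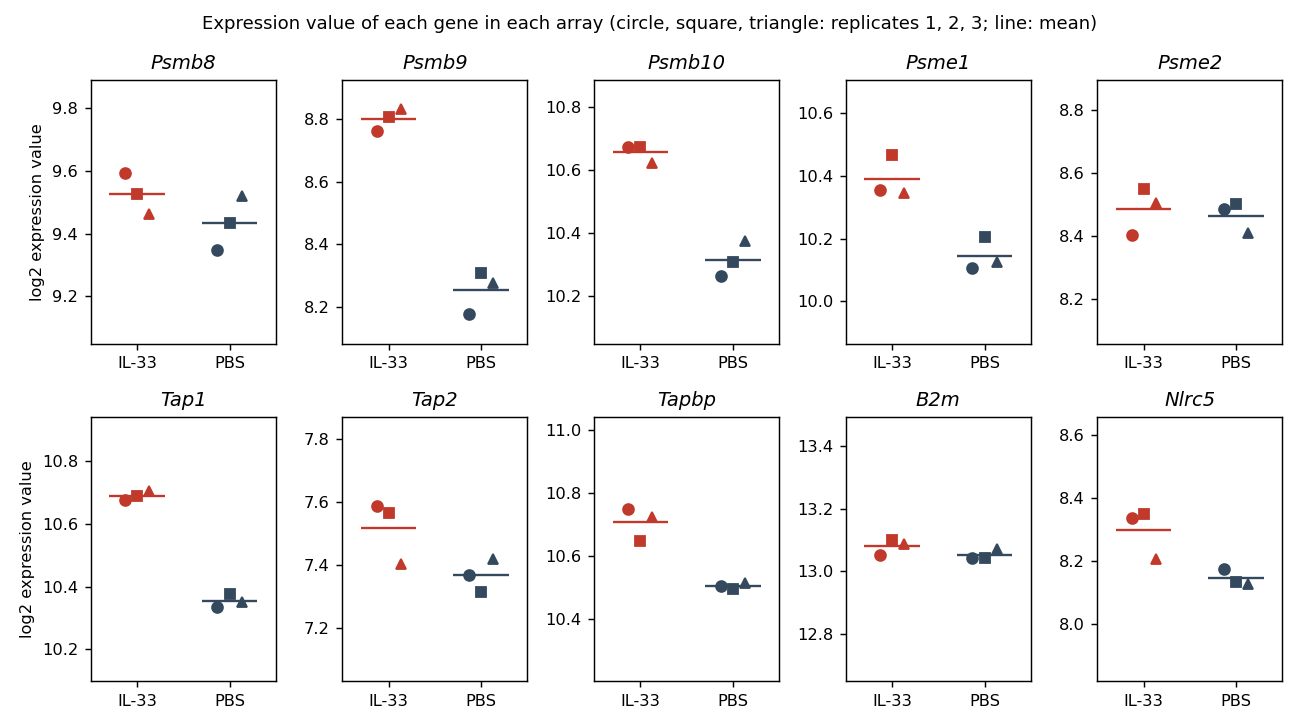
Log2 expression value (vertical axis, each panel spanning the same range) of the 10 genes in the 3 IL-33 and 3 PBS arrays, one panel per gene. Points are arrays, with a circle, square and triangle for replicates 1, 2 and 3, and lines are group means. The groups stand apart for Psmb9, Psmb10, Psme1, Tap1, Tapbp and Nlrc5, and overlap for Psmb8, Psme2, Tap2 and B2m.

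Among the inducible catalytic subunits, Psmb9 (also called LMP2) stood furthest apart between the groups. Its values were 8.76, 8.81 and 8.83 in IL-33 arrays, against 8.18, 8.31 and 8.28 in PBS arrays. The lowest IL-33 array exceeded the highest PBS array by 0.45. The log2 difference was 0.54 ± 0.06 (SE, adjusted p = 0.0160, limma), and it ranked 35 by p among all genes. Without IL-33 replicate 1 it still passed (adjusted p = 0.0414., limma) It did not pass without any one of the other 5 arrays, with adjusted p between 0.0549 and 0.0963, although the difference stayed between 0.506 and 0.572 (limma).

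Psmb10 (also called MECL-1), another inducible catalytic subunit, lay just outside the threshold. Its values were 10.67, 10.67 and 10.62 in IL-33 arrays, against 10.26, 10.31 and 10.37 in PBS arrays, with no overlap. The log2 difference was 0.34 ± 0.05 (SE, adjusted p = 0.0526, limma). It passed in 5 of the 9 alternatives that keep all arrays and in none of the 6 fits that leave an array out, where adjusted p lay between 0.12 and 0.209 (limma).

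Psmb8 (also called LMP7), the third inducible catalytic subunit, showed no such separation. Its values were 9.59, 9.53 and 9.46 in IL-33 arrays, against 9.35, 9.43 and 9.52 in PBS arrays. The highest PBS array lay above the lowest IL-33 array. Psmb8 differed by a log2 value of 0.09, with a 95% interval of -0.06 to 0.25 (adjusted p = 0.616, limma), so a rise as large as that of Psmb9 lies outside the interval.

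The standard subunits that these replace in the assembled particle did not pass. Psmb5, the counterpart of Psmb8, had a log2 difference of -0.03, Psmb6, the counterpart of Psmb9, of -0.09, and Psmb7, the counterpart of Psmb10, of 0.01. These 3 genes had adjusted p from 0.545 to 0.952 (limma) and an unadjusted p above 0.05, and the groups overlapped in each. A ratio within each array shows whether a pair changed unequally. The log2 ratio of Psmb9 over Psmb6 averaged -1.66 ± 0.10 in IL-33 arrays and -2.29 ± 0.10 in PBS arrays (SD, n = 3 each), a difference of 0.64. For Psmb10 over Psmb7 the averages were -0.15 ± 0.06 in IL-33 arrays and -0.48 ± 0.04 in PBS arrays (SD, n = 3 each), a difference of 0.33. In both pairs every IL-33 array lay above every PBS array, and the two-sided exact permutation p was 0.1, the smallest that 3 against 3 arrays allow. For Psmb8 over Psmb5 the averages were -2.98 ± 0.08 in IL-33 arrays and -3.10 ± 0.09 in PBS arrays (SD, n = 3 each). That difference of 0.12 had overlapping groups and a two-sided exact permutation p of 0.2. Adjusted over the 3 pairs, the exact p was 0.15, 0.15 and 0.2, and no pair could have passed in this design. Only the change of a ratio between groups can be read, because its level also depends on the probes.

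**Figure D2:**
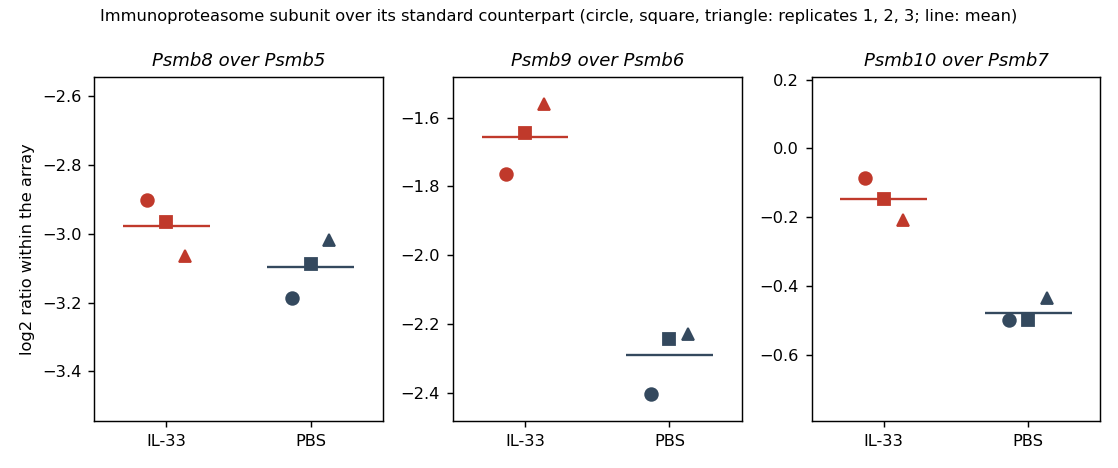
Log2 ratio within each array (vertical axis, each panel spanning the same range) of an inducible catalytic subunit over its standard counterpart, in 3 IL-33 and 3 PBS arrays. Points are arrays, with a circle, square and triangle for replicates 1, 2 and 3, and lines are group means. The IL-33 arrays lie above the PBS arrays for Psmb9 over Psmb6 and for Psmb10 over Psmb7, and the groups overlap for Psmb8 over Psmb5.

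The activator PA28 is a ring of alpha and beta subunits, encoded by Psme1 and Psme2, that opens the ends of the proteasome core. Psme1 had values of 10.35, 10.47 and 10.35 in IL-33 arrays, against 10.11, 10.21 and 10.13 in PBS arrays. The groups did not overlap, and the log2 difference was 0.24 ± 0.06 (SE, adjusted p = 0.148, limma). Psme2 had values of 8.40, 8.55 and 8.50 in IL-33 arrays, against 8.48, 8.50 and 8.41 in PBS arrays. These overlapped widely, and the log2 difference was 0.02, with a 95% interval of -0.12 to 0.16. It was below 0 without IL-33 replicate 2, at -0.011, and without PBS replicate 3, at -0.007, and did not pass in any fit. Another probe set carries Psme2 together with other gene symbols and was not used. The 2 genes lie near each other on chromosome 14, with Emc9 between them. The difference between the 2 subunits was not tested.

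The TAP transporter is a dimer of Tap1 and Tap2 that pumps peptides into the endoplasmic reticulum. Tap1 had values of 10.67, 10.69 and 10.70 in IL-33 arrays, against 10.34, 10.38 and 10.35 in PBS arrays. Its 3 arrays of a group lay closer together than those of most members, with an SD of 0.015 in IL-33 arrays and 0.021 in PBS arrays. The log2 difference was 0.34 ± 0.05 (SE, adjusted p = 0.0368, limma). Tap1 did not pass in any of the 6 fits that leave an array out, where adjusted p lay between 0.0931 and 0.184 and the difference between 0.326 and 0.347 (limma). Tap2 had values of 7.59, 7.56 and 7.40 in IL-33 arrays, against 7.37, 7.31 and 7.42 in PBS arrays. Replicate 3 of the IL-33 group lay below replicate 3 of the PBS group, so the groups overlapped. The log2 difference of Tap2 was 0.15, with a 95% interval of -0.01 to 0.31 (adjusted p = 0.398, limma).

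Psmb9, Tap1, Psmb8 and Tap2 are neighbours on chromosome 17, inside the MHC region, in that order in the RefSeq gene table. Psmb9 and Tap1 are transcribed away from each other, and their annotated starts are separated by 225 bases, so the stretch between them lies upstream of both genes that rose. It is shown because these are the only members that passed. The stretch is chr17:34187331-34187555, plus strand, build GRCm38.p6, as RefSeq gives it, read 5′ to 3′ toward Tap1, with a CCAAT box in capitals near the Psmb9 end:

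Psmb9-Tap1: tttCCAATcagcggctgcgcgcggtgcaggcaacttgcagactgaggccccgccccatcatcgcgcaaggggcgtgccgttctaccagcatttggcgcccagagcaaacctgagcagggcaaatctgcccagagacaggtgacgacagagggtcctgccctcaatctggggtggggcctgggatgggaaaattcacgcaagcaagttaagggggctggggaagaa

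Side by side along this cluster, the log2 differences were 0.54 for Psmb9, 0.34 for Tap1, 0.09 for Psmb8 and 0.15 for Tap2. The pair Psmb9 and Tap1 passed, which is why the stretch was chosen, and the other 2 genes of the cluster had overlapping groups. The difference between the pairs was not tested.

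Promoter windows of 300 bases, from 250 before to 50 after the annotated start, were found for 8 of the 10 members, those of Tap2 and Nlrc5 not being in the table used here. They were searched on both strands for 4 motifs that stand for factors known to act on these genes. The core of the interferon-stimulated response element was taken as GAAA, any 2 bases and GAAA, and was found in 2 members, B2m and Psme1, where 3.44% of 32851 promoter windows held it. The gamma-activated site, bound by STAT factors, was taken as TTCNNNGAA and was found in Psmb8, where 8.3% of windows held it. The kappaB motif, bound by NF-kB, was taken as GGGA, any 4 bases and CC, and was found in B2m, where 20.7% of windows held it. The CCAAT box was found in 4 members, B2m, Tapbp, Psmb9 and Tap1, where 37.4% of windows held it. The windows of Psmb9 and Tap1 overlap and share 1 CCAAT box, and neither holds a match to the other 3 motifs. A match is a description of letters and not a site in use, and a missing match says only that those letters are not in this window.

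Psme1, whose groups did not overlap, also holds a response element core, at bases 10 to 19 on the other strand, and is not printed. The 2 stretches below are shown because they hold the other matches to the interferon and NF-kB motifs, in members whose groups overlapped. Both are on the plus strand of build GRCm38.p6, as RefSeq gives it. The B2m stretch is chr2:122147527-122147657, from base -160 to base -30 relative to the start. Its capitals mark, in order, the response element core at -139 to -130, 2 overlapping kappaB matches, one on each strand, from -127 to -117, and a CCAAT box on the other strand at -53 to -49. The Psmb8 stretch is chr17:34198045-34198165, from base -150 to base -30, with the gamma-activated site at -97 to -89 in capitals. 

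B2m: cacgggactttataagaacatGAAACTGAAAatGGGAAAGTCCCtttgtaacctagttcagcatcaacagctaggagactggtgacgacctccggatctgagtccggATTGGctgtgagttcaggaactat

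Psmb8: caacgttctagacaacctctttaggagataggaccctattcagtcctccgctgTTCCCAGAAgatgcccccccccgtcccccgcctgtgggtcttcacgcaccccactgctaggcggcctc

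Tapasin, encoded by Tapbp, holds empty class I molecules at the TAP transporter until a peptide is bound. Tapbp had values of 10.75, 10.65 and 10.73 in IL-33 arrays, against 10.50, 10.49 and 10.51 in PBS arrays, without overlap. Tapbp differed by a log2 value of 0.20 ± 0.05 (SE, adjusted p = 0.160, limma). A second probe set of Tapbp, with a lower mean of 6.78, gave 6.77, 6.89 and 6.95 in IL-33 arrays and 6.73, 6.51 and 6.82 in PBS arrays, which overlap. One more carries several gene symbols, Tapbp among them, and was not used. B2m, the light chain shared by class I molecules and the one whose upstream stretch is printed above, had values of 13.05, 13.10 and 13.09 in IL-33 arrays, against 13.04, 13.04 and 13.07 in PBS arrays. These overlapped, and the log2 difference was 0.03, with a 95% interval of -0.08 to 0.14 (adjusted p = 0.845, limma). B2m lay near the highest value of these arrays, 13.62 to 13.66.

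Nlrc5 encodes a transactivator of class I genes, acting with the RFX and NF-Y proteins on their promoters. Its values were 8.34, 8.35 and 8.21 in IL-33 arrays, against 8.18, 8.13 and 8.13 in PBS arrays. The groups did not overlap, although replicate 3 of the IL-33 group lay only 0.03 above the highest PBS array. Nlrc5 differed by a log2 value of 0.15 ± 0.06 (SE, adjusted p = 0.328, limma).

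**Figure D3:**
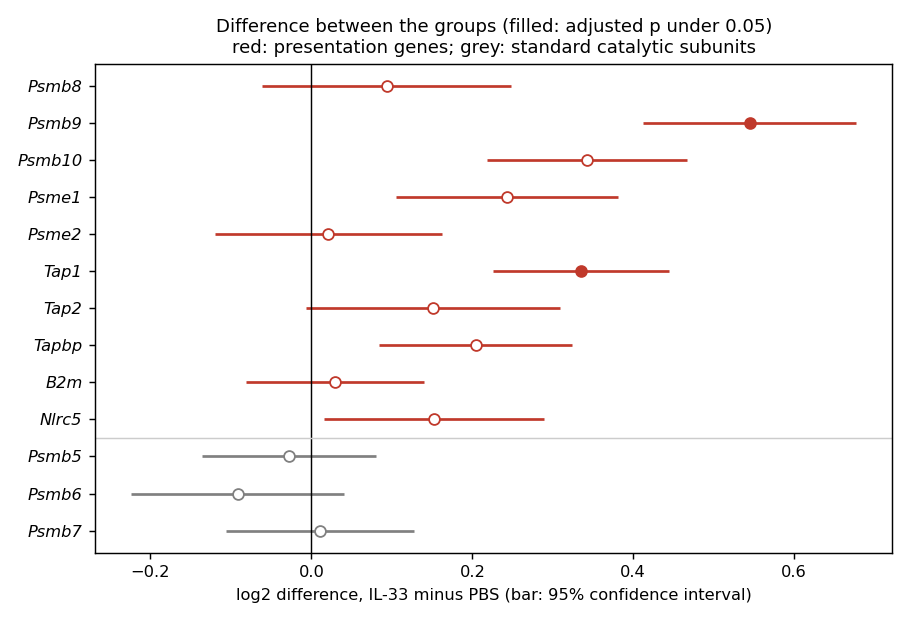
Log2 difference between IL-33 and PBS arrays (horizontal axis, IL-33 minus PBS, n = 3 each) for the 10 presentation genes (red) and the 3 standard catalytic subunits (grey), with 95% confidence intervals from limma as bars. Filled points passed at an adjusted p under 0.05, which were Psmb9 and Tap1. The intervals of Psmb9, Psmb10, Psme1, Tap1, Tapbp and Nlrc5 lie above 0, and they are not adjusted over genes. An unadjusted p under 0.05 was found for 6 of the 10 members, against 13.2% of all genes (limma), as a description, since the members were chosen with earlier results known.

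Of the regulators listed for these genes, 1 of 18 measured rose, none fell and the other 17 missed the threshold, and their median was 0.098 on the log2 scale. The one that rose was Stat2, a signal transducer of type I interferon receptors, with values of 10.84, 10.82 and 10.69 in IL-33 arrays, against 10.32, 10.38 and 10.40 in PBS arrays. Its log2 difference was 0.42 ± 0.06 (SE, adjusted p = 0.0408, limma), and it did not pass in any fit that leaves an array out, where adjusted p lay between 0.0963 and 0.184 (limma). Irf1, a transcription factor induced by interferons, had 7.54, 7.47 and 7.49 in IL-33 arrays, against 7.22, 7.36 and 7.32 in PBS arrays. That is a log2 difference of 0.20 (adjusted p = 0.198, limma) and no overlap. Irf8, a macrophage lineage factor that also acts on interferon-responsive genes, had a log2 difference of 0.31 (adjusted p = 0.0551, limma) and was singled out only once its values were known. In 10 of the 18 every IL-33 array lay above every PBS array, and in none below, where 10.3% and 10.1% of all genes did so. At an unadjusted p under 0.05, 6 of the 18 passed, against 13.2% of all genes.

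Class I heavy chains and related molecules gave 1 rise, no fall and 10 members that did not pass, of 11 measured, with a median log2 difference of 0.045. H2-T23, which encodes the non-classical molecule Qa-1, rose 1.41-fold. Its values were 10.09, 10.04 and 10.03 in IL-33 arrays, against 9.58, 9.49 and 9.60 in PBS arrays. The log2 difference was 0.50 ± 0.05 (SE, adjusted p = 0.0183, limma), and it did not pass in any fit that leaves an array out, where adjusted p lay between 0.0565 and 0.0963 (limma). At an unadjusted p under 0.05, 5 of the 11 passed, against 13.2% of all genes. The next 4 genes were picked with their values in view. H2-M2 had a log2 difference of -0.18 (adjusted p = 0.251, limma), with every IL-33 array below every PBS array. It averaged only 4.53 in IL-33 arrays and 4.71 in PBS arrays, below the array medians. H2-T24 had a log2 difference of 0.34 (adjusted p = 0.0504, limma), and Mr1, which presents vitamin B metabolites, of 0.32 (adjusted p = 0.0717, limma). H2-K1, a classical heavy chain, had 10.04, 9.97 and 10.09 in IL-33 arrays, against 10.01, 10.02 and 9.97 in PBS arrays, with a log2 difference of 0.03 and overlapping groups. Many heavy chain genes, though not all in this list, are much alike in sequence. Probes of one such gene can read another, so these values are uncertain. H2-D1 was not analysed here.

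Among 9 partners in peptide trimming and loading, none passed, and the median log2 difference was -0.012. Erap1, the aminopeptidase that trims peptides in the endoplasmic reticulum, had values of 9.28, 9.27 and 9.37 in IL-33 arrays, against 9.0, 8.98 and 8.94 in PBS arrays. Its log2 difference was 0.33 ± 0.05 (SE), with no overlap (adjusted p = 0.0574, limma). Tpp2, a peptidase of the cytosol, had a log2 difference of -0.11 (adjusted p = 0.402, limma), and its IL-33 arrays all lay below its PBS arrays. At an unadjusted p under 0.05, 1 of these 9 genes passed, Erap1, against 13.2% of all genes.

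The rest of the proteasome gave no gene that passed in the main fit. Of 13 measured core subunits and assembly factors, 11 had a difference above 0, with a median of 0.057, and in 6 every IL-33 array lay above every PBS array, as in 10.3% of all genes. The smallest p belonged to Psmg1, an assembly chaperone, with a log2 difference of 0.20, and to Psmb4, a structural core subunit, with 0.12, at adjusted p of 0.199 and 0.32 (limma). Of 19 subunits of the 19S regulator and other activators, 15 had a difference above 0, with a median of 0.037, and the groups did not overlap in 5, 4 upward and 1 downward, where 10.3% and 10.1% of all genes did so. Psmc2 and Psmc5, ATPases of the 19S base, had log2 differences of 0.13 and 0.10 with adjusted p of 0.287 and 0.422 (limma). At an unadjusted p under 0.05, 3 of the 13 core and assembly genes and 1 of the 19 activator genes passed, against 13.2% of all genes.

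The MHC class II pathway, by which macrophages show peptides of engulfed material to CD4 T cells, gave no gene that passed among 11 measured, and the median log2 difference was 0.007. Ciita, the transactivator of class II genes and a relative of Nlrc5, had 6.10, 6.11 and 5.90 in IL-33 arrays, against 5.92, 6.06 and 6.34 in PBS arrays. The groups overlapped, and the log2 difference was -0.07 with a 95% interval of -0.34 to 0.20. H2-DMb1, a subunit of a peptide exchange factor, had a log2 difference of -0.35 (adjusted p = 0.212, limma), and H2-DMa, its partner, of -0.08 (adjusted p = 0.656, limma). H2-DMb1 averaged only 3.34 in IL-33 arrays and 3.70 in PBS arrays, below the array medians. Of the 11 genes, 9 lay above those medians, which reached 5.36, but several only narrowly. The next 4 genes are named for their levels. H2-Ab1 averaged 5.39 in IL-33 arrays and 5.38 in PBS arrays, and H2-Oa 5.63 and 5.52. Ctss, at 11.46 and 11.41, and Ifi30, at 11.94 and 11.98, lay far above the medians. At an unadjusted p under 0.05, 1 of the 11 passed, H2-DMb1, against 13.2% of all genes.

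**Figure D4:**
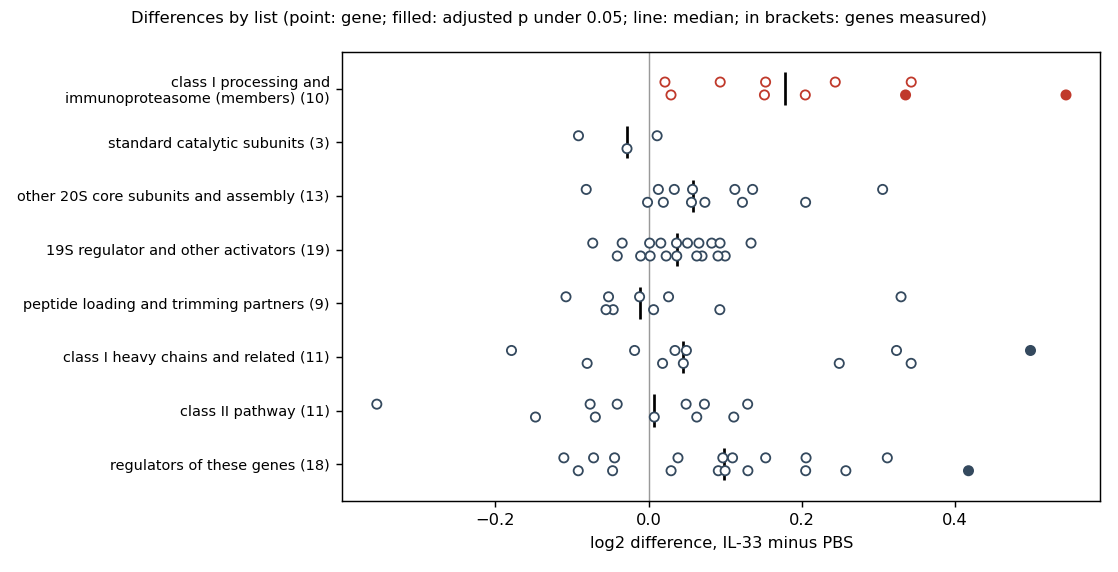
Log2 difference between IL-33 and PBS arrays (horizontal axis, IL-33 minus PBS) of each measured gene, grouped by list (rows, with the number of genes in brackets). Each point is a gene, filled where it passed at an adjusted p under 0.05, and the short line is the median of the list. The 10 members (red, top row) have a median of 0.178 and all lie above 0, and the medians of the other 7 lists lie between -0.028 and 0.098.

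The genes most like the members that passed were sought over the 6 arrays by Pearson's r among all genes, as a description. The points share the arrays and the separation of 3 IL-33 from 3 PBS arrays. For Psmb9 they were Mx1 (r = 0.9973), Trim30d, Yars, Tap1 and Cth (r = 0.9958), and their log2 differences were 1.49, 2.03, 0.10, 0.34 and 0.18 in that order. For Tap1 they were Isg15 (r = 0.9992), Pde7b, Nfxl1, Defb25 and Uqcrc2 (r = 0.9965), with log2 differences of 0.39, 0.76, 0.24, 0.38 and 0.13. Mx1 and Isg15 encode antiviral proteins known to be induced by interferons, Cth an enzyme of cysteine synthesis and Uqcrc2 a subunit of respiratory complex III.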

How the data were processed

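Biotin-labelled cDNA made from total RNA was measured on 6 whole-transcript arrays, per the labels' protocols. The table that the authors deposited holds log2 expression values made with RMA, per the submitters' processing notes. RMA equalises array distributions, which hides a shift common to most genes; its version and settings, and a genome build, are not given in the sources used. Of 41345 probe sets, 23521 carried 1 gene symbol in the platform annotation, and 1814 carried several and named no gene. Symbols were checked by Entrez ID against RefSeq genes of GRCm38.p6 (23328 matched, 0 changed).

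The fit took the values as deposited (limma 3.58.1, R 4.3.3, lmFit then eBayes, group as the only term), adjusted over 22180 genes. Intervals are from the same fit and are not adjusted over genes. Ratios were tested by exact permutation (scipy 1.17.1), and figures drawn with matplotlib 3.10.9. Arrays have no count depth, so their number limits precision, and the median SE of a difference was 0.073. The fit was tested on simulated data first. It recovered 81.6% of genes changed by a log2 value of 0.5 and 99.4% of those changed by 1. On average 4.85% of the genes that passed were false. Smaller changes, such as those of every member but Psmb9, were not simulated.

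The members, lists, motifs and alternatives were chosen with earlier results of these data known. All 10 members were named. Of each of the 7 pathway and 6 marker lists, up to 4 genes that passed were named, or the 2 with the smallest p, with Psmb5, Psmb6, Psmb7, Ciita and Irf1 whatever their values. Genes named outside this rule are marked in the text, beside Mertk, the 1 marker of its list below the medians. One further gene is not reported here. For likeness, 5 genes were named per member that passed. Alternatives left out each array in turn, dropped dim genes by either of 2 filters, averaged a gene's probe sets, adjusted all probe sets together, weighted arrays, blocked on the replicate number, used a robust prior variance with a trend, or rescaled the arrays by quantiles or by their 75th percentile.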

Additional observations from a re-analysis of the deposited data

How the results depend on the processing

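All 10 members kept a positive difference in the 9 alternatives that use all arrays. Without 1 array that held for 9 of them, Psme2 ranging from -0.011 to 0.062. The calls moved more. Against 2 members, 131 genes and 2 genes of the 7 other pathway lists (marker lists not counted), 5, 760 and 7 passed with a filter at the median gene mean, and 5, 1000 and 12 with a trended and robust prior variance, the 5 being Psmb9, Tap1, Psmb10, Tapbp and Psme1 in each. The 12 included 3 of the other core subunits and assembly factors and 1 gene of the 19S regulator and other activators. A filter at the 25th percentile gave 296 genes, 6 of them in the 7 pathway lists, and array weights gave 5 pathway genes. With all probe sets adjusted together, which tests more features, 0 members, 17 genes and 0 pathway genes passed, and Psmb9 had an adjusted p of 0.0862 (limma). With the replicate block the counts were 0, 21 and 0. Deviations of same-numbered arrays correlated at only 0.019 to 0.057. IL-33 replicates 1 and 2 correlated best with their own number, and replicate 3 did not. Values this small do not settle whether the numbers are pairs, and the main fit did not take them as pairs. Leaving out 1 array, which leaves fewer samples, gave 15 to 83 genes, 0 to 1 members and 0 genes of those pathway lists. Otherwise the cause of these shifts was not tested. No scaling moved the median of all genes by more than 0.011. The changes in the 3 within-array ratios kept their direction without any 1 array. Standard errors of the members' differences lay between 0.046 and 0.067.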
